A study of Mus musculus with 2 samples.

Results

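Globin expression was read in bone marrow LSK cells, sorted as lineage-negative, Sca-1-positive and c-Kit-positive, among which are the stem cells and early progenitors of blood. The globin genes comprised every non-control probe whose name in the array file, or whose transcript, belongs to a gene with an Hba or Hbb symbol. This gave 13 probes for 10 genes, out of 55680 probes kept and 34786 genes or transcripts on the array. The members were the adult alpha-like genes Hba-a1 and Hba-a2, the adult beta-like genes Hbb-bt, Hbb-bs and Hbb-b2, the embryonic genes Hba-x, Hbb-bh1 and Hbb-y, the beta-like gene Hbb-bh2 and the alpha-like pseudogene Hba-ps4. The gene called Hbb-b1 in the array file is the gene now named Hbb-bt through its transcript NM_008220, and the file's Beta-s, Gm5736 and Gm5226 are Hbb-bs, Hbb-bh2 and Hba-ps4.

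The treated group was 1 array of cells from mice given decitabine (DAC), a cytosine analogue that inhibits DNA methyltransferases, and the control group was 1 array of cells from mice given phosphate-buffered saline (PBS). Both arrays came from C57BL/6 mice and carried the same genotype, Tet2KD/KD with Ezh2delta/delta, in a myelodysplastic syndrome (MDS) passed to secondary recipients. Cells were taken 10 weeks after transplantation, which was 7 weeks after treatment. The labels used here give neither the age of the mice, nor how many mice stood behind an array, nor what drove the deletion of Ezh2, and they do not spell out KD. With 1 array a group no difference could be tested, no p-value is given, and the spread between mice is unknown.

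Haemoglobin is a tetramer of a pair of alpha-like and a pair of beta-like globin chains, each of which holds a haem group. In the mouse the embryonic chains are made in primitive red cells and the adult chains in definitive red cells, and both clusters depend on distant enhancers and on erythroid factors such as GATA1 and KLF1. Stem and progenitor cells lie upstream of red cell formation, and globin RNA is most abundant in late erythroblasts. Laboratory strains differ in their beta-globin haplotype: C57BL/6 carries Hbb-bs and Hbb-bt, and Hbb-b1 and Hbb-b2 belong to the haplotype of other strains.

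The sequences of the adult probes are given 5′ to 3′ as the array files hold them. Capitals mark the polyadenylation signal in the Hba-a2 probe, and in the Hbb-bs probe the ATG start codon with the coding bases after it.
Hbb-bt: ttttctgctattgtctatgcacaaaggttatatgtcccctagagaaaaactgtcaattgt
Hbb-bs: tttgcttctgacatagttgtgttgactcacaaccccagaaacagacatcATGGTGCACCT
Hbb-b2: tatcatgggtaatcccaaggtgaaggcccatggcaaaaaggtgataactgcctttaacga
Hba-a1: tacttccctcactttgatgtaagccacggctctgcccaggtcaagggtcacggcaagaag
Hba-a2: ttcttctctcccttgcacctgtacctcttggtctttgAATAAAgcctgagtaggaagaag

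Cross-hybridisation was judged from the file's own transcript lists and from these letters. The Hba-a1 and Hba-a2 probes each list the transcripts of both alpha genes, so they read the sum of the pair, with no reading of either gene alone. The Hbb-bs and Hbb-b2 probes share listed transcripts, and the Hbb-b2 probe is unmapped on mm9, the C57BL/6 genome of the array design. Which beta gene gives the Hbb-b2 signal in these C57BL/6 cells was not tested. The Hbb-bt probe shares no listed transcript with a probe of another globin gene. Over its first 46 bases the Hbb-bs probe matched the 5′ end of Hbb-bs at 46 of 46 positions. Against the 5′ end of Hbb-bt it matched at 38 of 45, which is 84.4%. Compared with each other in 78 pairs, the globin probes had a longest shared run of 8 bases and a highest ungapped identity of 62.5%. No globin probe shared a run of 16 bases with any other probe on the array. Such a comparison cannot show which transcripts a probe binds, because unlike probes may lie in different parts of the same transcript. The Hba-a1 and Hba-a2 probes, which share listed transcripts, were 48.7% identical at best.

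The probes for the embryonic genes and for Hbb-bh2 also differ in sequence from the adult ones and from each other. Which transcripts they bind was not tested. The third Hbb-bh2 probe, not printed here, was the most like an adult one, at 57.6% identity with the Hbb-bs probe over 59 bases. It matched the 5′ end of Hbb-bt at 30 of 44 positions and that of Hbb-bs at 30 of 45. Hbb-y and Hbb-bh2 had several probes, numbered here by signal, and capitals mark a polyadenylation signal.
Hbb-bh1: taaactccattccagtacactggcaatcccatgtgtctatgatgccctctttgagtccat
Hbb-y (1): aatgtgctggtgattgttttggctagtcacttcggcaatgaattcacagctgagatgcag
Hbb-y (2): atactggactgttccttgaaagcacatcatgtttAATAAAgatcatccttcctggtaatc
Hba-x: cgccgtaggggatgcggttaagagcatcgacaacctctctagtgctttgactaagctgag
Hbb-bh2 (1): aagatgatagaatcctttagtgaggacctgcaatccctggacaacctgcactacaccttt
Hbb-bh2 (2): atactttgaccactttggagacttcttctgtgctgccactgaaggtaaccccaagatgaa

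The DAC array was the brighter one. Well above background (a call of the scanner software) were 56.8% of its probes, against 48.5% on the PBS array. Saturated spots numbered 0. Scaling set each array's 75th percentile, taken over the 25404 probes that passed this call on both, to a log2 signal of 0. This divided the DAC intensities by 1.32 relative to the PBS intensities, so a probe of equal intensity on both arrays has a scaled log2 difference (DAC minus PBS) of −0.40. Of the LSK and stem cell markers 9 of 10 were measured, with Kit at 5080 on the DAC array against 3550 on the PBS array, and Ly6a, which encodes Sca-1, at 1295 against 939. Each globin probe was printed as 1 spot. The errors given with intensities are those of the scanner software, and the spot SD is that of a log2 difference between repeated spots of like signal, which covers printing, hybridisation and scanning only.

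The adult beta-globin probes were lower on the DAC array than on the PBS array, by 1.55-fold to 1.77-fold after scaling. Hbb-bt (chromosome 7, 110961105 to 110961164, mm9, minus strand), one of the pair of adult beta genes of C57BL/6, read 856 ± 85.8 on the DAC array against 1005 ± 101 on the PBS array. Its log2 difference was −0.63 with a spot SD of 0.10. Hbb-bs (chromosome 7, 110976379 to 110976438, minus strand), the other gene of the pair, read 34.7 ± 6.35 on the DAC array against 44.8 ± 6.44 on the PBS array. This was a log2 difference of −0.76 with a spot SD of 0.38. The Hbb-b2 probe read 67.6 ± 8.75 on the DAC array against 90.7 ± 10.4 on the PBS array, a log2 difference of −0.82 with a spot SD of 0.26. Before scaling, the intensity intervals of DAC and PBS overlapped for Hbb-bt and Hbb-bs by the software's error, and did not for Hbb-b2. Carried to the log2 difference, that error was 0.20 for Hbb-bt, 0.34 for Hbb-bs and 0.25 for Hbb-b2, smaller than each scaled difference. These probes were the lower ones in intensity too, with no scaling, by 1.17-fold, 1.29-fold and 1.34-fold. In bulk cells such a difference cannot tell fewer globin-expressing cells from less globin RNA per cell.

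**Figure D1:**
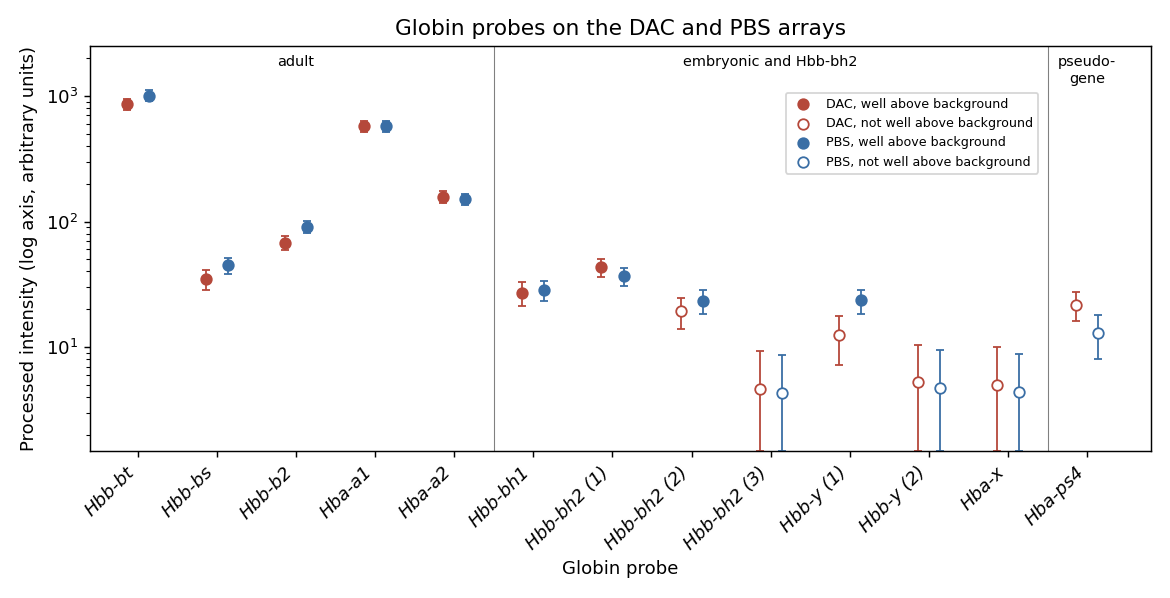
Processed intensity (log axis, arbitrary units, before scaling) of the 13 globin probes, with DAC left of PBS in each pair, and error bars of the scanner software, drawn down to the axis where the error exceeds the value. Filled points are well above background. The adult probes are filled on both arrays, DAC lies below PBS for Hbb-bt, Hbb-bs and Hbb-b2, and Hba-a1 and Hba-a2 are nearly level.

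The adult alpha-globin probes had nearly equal intensities on both arrays. Hba-a1 (chromosome 11, 32183955 to 32184014, mm9, plus strand) read 578 ± 58.1 on the DAC array against 575 ± 57.7 on the PBS array. Hba-a2 (chromosome 11, 32197245 to 32197304, plus strand) read 157 ± 16.7 on the DAC array against 151 ± 15.8 on the PBS array. Before scaling the arrays overlap within the error for both. The software's error, carried to the log2 difference, was 0.20 for Hba-a1 and 0.22 for Hba-a2. After scaling their log2 differences were −0.39 with a spot SD of 0.10 and −0.34 with a spot SD of 0.17, and with no scaling they turned to 0.0080 and 0.061. Since the probes share listed transcripts, they may be 2 readings of the same alpha transcripts, which was not tested. One lies near position 161 of its transcript and the other near the 3′ end at position 497.

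Taken by family, the beta probes lay below the alpha probes. The median log2 difference was −0.76 over 3 beta probes and −0.36 over 2 alpha probes, a gap of −0.40 that a shift of the whole array does not touch. Of the beta probes the brightest, Hbb-bt, lay nearest the alpha probes at −0.63. The dimmer Hbb-bs and Hbb-b2 lay at −0.76 and −0.82, with spot SDs of 0.38 and 0.26. The gap was −0.70 with quantile normalization, and it was −0.18 with normexp background correction and −0.20 with no background subtraction. From the repeated spots a spread of 0.21 would be seen for such a gap, and its spread between mice is unknown. Over all 5 adult probes the median was −0.63, against 0.04 over all measured probes.

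Below 0 were 5 of 5 adult probes, where the background was 47.7% of measured probes, and 0 of 5 were at least 2-fold lower, where it was 7.13%. These 5 cannot be counted as independent readings, because the alpha probes share listed transcripts, as do the Hbb-bs and Hbb-b2 probes. With no scaling the alpha probes lay above 0. Among 23727 measured probes at least as bright as the dimmest adult globin probe, 47.3% lay below 0 and 15.1% had a difference at or below −0.63. Of all measured probes 9.97% were as low as Hbb-b2, 11.2% as low as Hbb-bs, 14.7% as low as Hbb-bt, 24.5% as low as Hba-a1 and 27.4% as low as Hba-a2, so differences of this size were common on these arrays. In rank, which a scaling factor does not alter, the Hbb-bt probe stood above 89.0% of all probes on the DAC array and above 91.5% on the PBS array. For Hbb-b2 the ranks were 58.7% on the DAC array against 69.9% on the PBS array, and for Hba-a1 they were 86.0% and 88.1%. Ranks also depend on how many other probes give signal, and 56.8% passed the call for DAC against 48.5% for PBS. Every measured globin probe ranked lower for DAC, even the brightest Hbb-bh2 probe, at 51.7% against 58.3% for PBS. Yet that Hbb-bh2 probe had the higher intensity for DAC, 43.4 against 36.6 for PBS. How much of the lower globin ranks came from this was not tested.

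**Figure D2:**
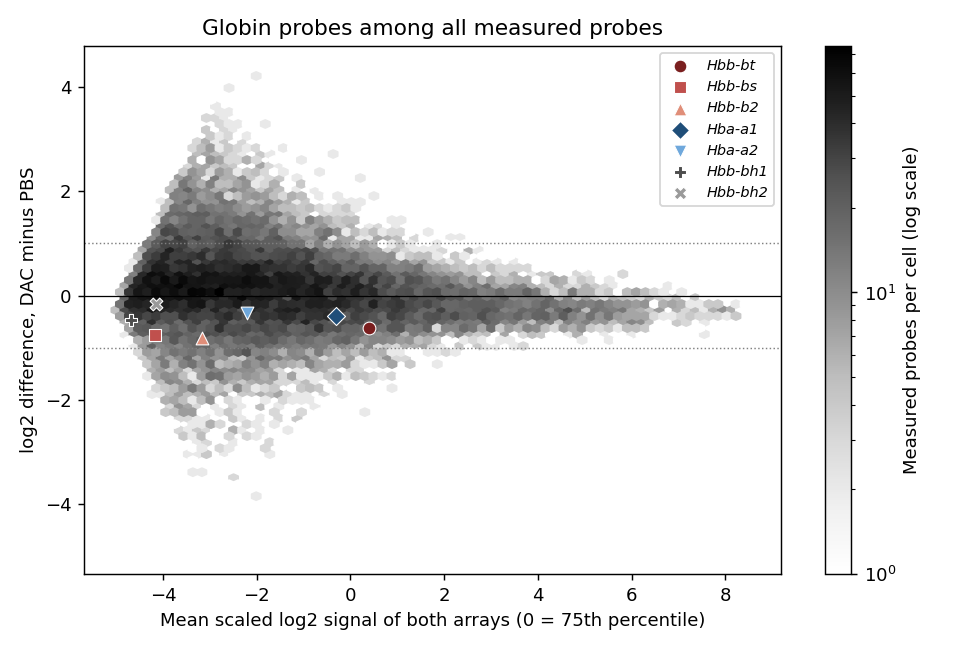
Log2 difference, DAC minus PBS, against the mean scaled log2 signal of both arrays for all 25404 measured probes (grey cells, darker where more probes fall) and the 7 measured globin probes (symbols). Dotted lines mark 2-fold. With this scaling all globin symbols lie below 0 and above the lower 2-fold line, inside the grey cloud, and with no scaling Hba-a1, Hba-a2 and Hbb-bh2 lie above 0.

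The scaling sets how far below 0 the globins lie. With no scaling 3 of 5 adult probes were below 0, the beta ones, where the background was 24.1% of measured probes. In the other 9 settings of scaling and background all 5 were below 0, where the share of measured probes below 0 ran from 47.7% as reported to 66.2% with spike-in scaling. At least 2-fold lower were 2 of 5 with quantile normalization (10.6% of measured probes) and with spike-in scaling (13.1%), Hbb-bs and Hbb-b2 in both. Hbb-b2 was the 1 of 5 with loess (8.83% of measured probes), with the percentile over all probes (10.4%) and with the series matrix values (10.4%). Hbb-bt ranged from −0.94 to −0.23 over the settings, Hbb-bs from −1.21 to −0.37 and Hbb-b2 from −1.18 to −0.43. Relative to all measured probes under the same setting, the adult median lay between −0.67 and −0.36 on the log2 scale.

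**Figure D3:**
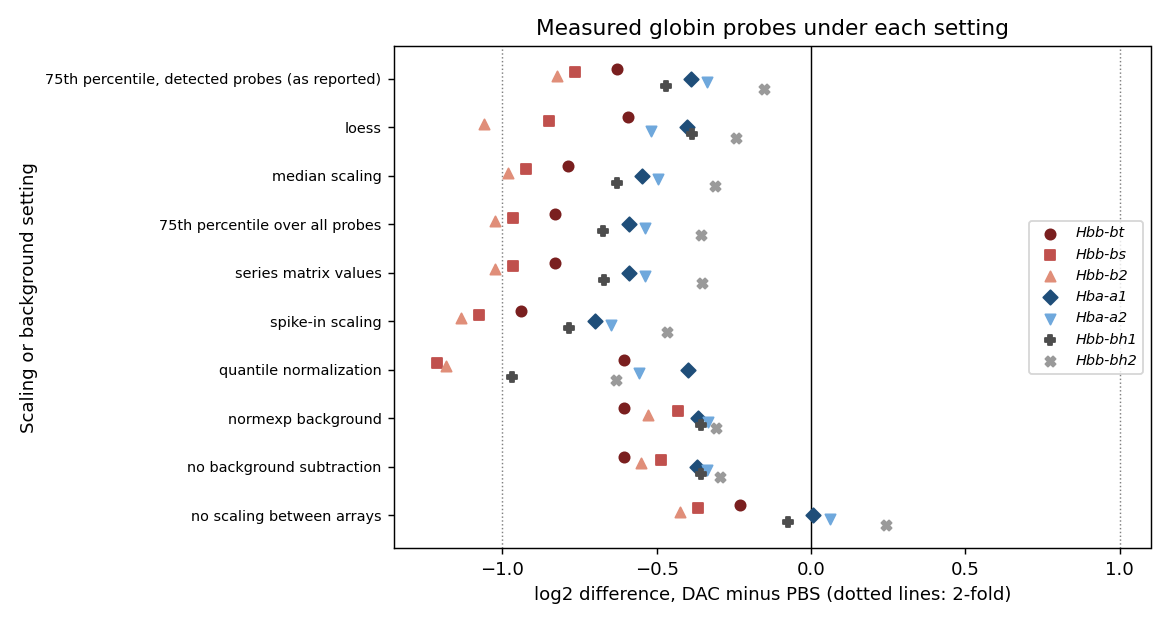
Log2 difference, DAC minus PBS, of the 7 measured globin probes (symbols) under each scaling or background setting (lines of the y axis). The adult beta-globin and Hbb-bh1 symbols stay left of 0 in every setting shown, and Hba-a1, Hba-a2 and Hbb-bh2 reach 0.0080, 0.061 and 0.24 with no scaling between arrays.

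Embryonic globin signal was dim or not above background on both arrays. The primitive beta-like gene Hbb-bh1 (chromosome 7, 110990209 to 110990268, minus strand) read 27.1 ± 5.86 on the DAC array against 28.5 ± 5.39 on the PBS array, which overlap. Its log2 difference was −0.47 with a spot SD of 0.40. For comparison, the dimmest probe called well above background read 22.5 on the DAC array against 20.3 on the PBS array. Hbb-bh1 sat just above these signals. The alpha-like embryonic gene Hba-x (chromosome 11, 32177668 to 32177727, plus strand) read 5.03 on the DAC array against 4.39 on the PBS array and was not well above background on either. Neither was the second Hbb-y probe (chromosome 7, 111000268 to 111000327), at 5.23 on the DAC array against 4.71 on the PBS array.

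The first probe of Hbb-y (chromosome 7, 111000448 to 111000507), the other primitive beta-like gene, was well above background on the PBS array only. It read 12.4 ± 5.22 on the DAC array against 23.6 ± 5.15 on the PBS array, which is at least 1.38-fold lower on DAC after scaling. Such a bound sets the brighter array against the dimmest signal that passed the call on the other, and it holds for this scaling only. The second Hbb-y probe, which holds the polyadenylation signal, was not, so only 1 of the 2 probes of this gene gave a signal. Whether the first probe's PBS signal comes from Hbb-y or from another transcript was not tested.

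Hbb-bh2, whose gene lies between Hbb-bs and Hbb-bh1, had 3 probes. The brightest (chromosome 7, 110988599 to 110988658) read 43.4 ± 6.95 on the DAC array against 36.6 ± 6.16 on the PBS array. Its scaled difference was −0.15, against 0.24 with no scaling, with a spot SD of 0.38. The second, unmapped on mm9, was well above background on the PBS array only, at 19.3 ± 5.45 on the DAC array against 23.4 ± 5.02 on the PBS array, which overlap. The third (chromosome 7, 110988929 to 110988988) was well above background on neither. The probe of the pseudogene Hba-ps4 (chromosome 17, 26423752 to 26423916) was not well above background on either array, at 21.8 ± 5.69 on the DAC array against 13.0 ± 4.98 on the PBS array.

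Of all 13 globin probes 7 were measured on both arrays, 2 were well above background on the PBS array only, 0 on the DAC array only, and 4 on neither. Over all kept probes 2.88% were well above background on the PBS array only and 11.1% on the DAC array only. The 7 measured ones comprise all 5 adult probes and 2 of 7 probes for the embryonic genes and Hbb-bh2. At the looser call of positive and significant signal, 4 of those 7 probes passed on the DAC array against 4 on the PBS array, so the count of embryonic probes found on 1 array only depended on the call. Probes differ in how well they hybridise, so intensities of adult and embryonic probes do not give a ratio of their RNAs.

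The promoters of the adult and embryonic genes are shown because the genes of one cluster share their regulators. Each sequence is the 110 bases before the annotated start (RefSeq, GRCm38.p6), on the gene's strand, with 4 motifs in capitals where they occur on either strand. The box that KLF1 is known to bind was searched as CACCC. The common CCAAT box was searched by those letters, a form of the TATA box as ATATAA, and the motif of GATA factors as GATAA. No motif overlapped another.
Hbb-bt (chr7:103813924-103814033, minus strand): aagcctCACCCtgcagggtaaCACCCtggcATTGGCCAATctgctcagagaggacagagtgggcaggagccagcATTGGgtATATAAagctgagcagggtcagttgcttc
Hbb-bs (chr7:103827929-103828038, minus strand): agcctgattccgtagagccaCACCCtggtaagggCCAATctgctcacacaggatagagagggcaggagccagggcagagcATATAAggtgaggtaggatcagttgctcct
Hba-a1 (chr11:32283562-32283671, plus strand): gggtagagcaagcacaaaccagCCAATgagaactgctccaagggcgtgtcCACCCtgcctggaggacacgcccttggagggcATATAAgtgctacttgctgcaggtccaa
Hbb-y (chr7:103853208-103853317, minus strand): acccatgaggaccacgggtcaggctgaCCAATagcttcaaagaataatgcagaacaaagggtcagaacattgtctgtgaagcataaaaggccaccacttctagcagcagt
Hba-x (chr11:32276490-32276599, plus strand): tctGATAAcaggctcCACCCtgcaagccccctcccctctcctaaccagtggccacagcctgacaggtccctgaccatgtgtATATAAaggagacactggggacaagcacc

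The 4 adult windows each hold the KLF1 box, the CCAAT box and the TATA form. Hbb-bt has CACCC starting 104 and 89 bases before the start, and Hbb-bs has it 90 bases before. In Hba-a1 the order is turned, with CCAAT 88 and CACCC 60 bases before the start. Hba-a2 is identical to Hba-a1 at 100% of the aligned bases, and Hbb-bs and Hbb-bt match at 73.4% of 109. The embryonic Hbb-y window holds only the CCAAT box of these motifs, the Hba-x window holds all of them but the CCAAT box, and the Hbb-bh2 window holds none of these motifs. Of 32851 promoter windows of this length, 29.6% hold the KLF1 box, 20.2% the CCAAT box, 4.09% the TATA form and 9.43% the GATA motif. A match is a description of the letters, and binding was not measured in these data.

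The neighbours of each cluster were read by their mm9 positions, within 100 kb of the outermost globin probes. Around the alpha cluster 8 of 13 neighbouring probes were measured. Nprl3, whose introns carry the alpha-globin enhancers in the mouse, was higher on the DAC array on both of its probes. It read 647 on the DAC array against 287 on the PBS array at the first, a log2 difference of 0.78, and 264 on the DAC array against 57.3 on the PBS array at the second, a difference of 1.81. Over the settings these lay between 0.46 and 1.17, and between 1.01 and 2.21. The DNA repair glycosylase gene Mpg had differences of −0.59 and 0.16 on its probes, and Snrnp25, which encodes a protein of the minor spliceosome, of 1.00 and −0.26, so neither gave 1 direction. Around the beta cluster all 17 neighbouring probes belonged to olfactory receptor genes and 16 were not well above background on either array. The exception, Olfr64 (chromosome 7, 111041324 to 111041383), read 6.40 on the DAC array against 131 on the PBS array, a DAC signal at least 7.68-fold lower after scaling, and its log2 difference ran from −5.07 to −1.78 over the settings.

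Globin-fold relatives other than the Hba and Hbb genes gave little signal. Of 6 such genes, the theta globins Hbq1a and Hbq1b, myoglobin (Mb), neuroglobin (Ngb) and Adgb were well above background on neither array. Cytoglobin (Cygb) passed the call for DAC alone, at 69.5 on the DAC array against 4.77 on the PBS array, at least 2.61-fold higher after scaling, with a log2 difference of 0.61 to 3.87 over the settings. Ahsp, which encodes the chaperone of free alpha globin, read 68.7 on the DAC array against 52.7 on the PBS array, a scaled difference of −0.013 that ran from −0.41 to 0.38 over the settings. Hp, which encodes the haemoglobin-binding plasma protein haptoglobin, read 665 on the DAC array against 884 on the PBS array, a difference of −0.81 with a spot SD of 0.10.

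Genes that make haem, the group the globins carry, differed in direction. Of 9 measured of 11 haem synthesis genes 0 were at least 2-fold higher and 0 lower, where the background over measured genes was 10.0% higher and 6.84% lower, and their median difference was 0.18. Alas1, the housekeeping form of the first enzyme of the pathway, had a difference of 0.89 on its brightest probe and of −0.083 on its other one. Urod, a later enzyme, had one of −0.13, and Fech, which inserts the iron, one of −0.41. Alas2, the erythroid form of the first enzyme, was well above background on the PBS array only, with 14.3 on the DAC array against 30.1 on the PBS array, a log2 difference of −1.99 to −0.62 over the settings. Uros, another enzyme of the pathway, was well above background for DAC only, with 29.7 on the DAC array against 15.8 on the PBS array. Iron handling genes, 9 of 9 measured, had a median difference of 0.26, and 2 passed 2-fold upward and 1 downward. The mitochondrial iron importer gene Slc25a37 had 1.54 on its brightest probe and 0.29 on its other one, the iron-responsive regulator Ireb2 1.20, the ferrireductase gene Steap3 −2.80, and the ferritin light chain gene Ftl1 −0.11 with 0.48 on its other probe.

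The 15 erythroid transcription factors, all measured, had a median difference of 0.14. Where 10.0% of all measured genes passed 2-fold upward and 6.84% downward, 2 of the 15 passed it upward, 2 downward and 11 did neither. The higher ones were Foxo3 (1.26) and Gata2 (1.17), a GATA factor of stem and early progenitor cells. The lower ones were Gata1 (−2.02), the erythroid GATA factor, and Klf3 (−1.55). Klf1, an activator of the adult beta-globin gene, read 94.4 on the DAC array against 97.0 on the PBS array, a scaled difference of −0.44 with a spot SD of 0.25, and Gfi1b had one of −0.0027. Of 20 regulators of globin switching 15 were measured, 1 at least 2-fold higher (Pogz 1.73, with 0.38 on its other probe), 1 at least 2-fold lower (Klf2 −1.44), and the median was 0.22. Bcl11a, a repressor of embryonic globin genes, read 1533 on the DAC array against 651 on the PBS array. Its difference was 0.84, with 0.94 on its other measured probe, and it stayed above 0 in every setting run, from 0.53 to 1.24. On 1 array only were 4 further genes of this list, 3 on DAC and 1 on PBS, where 11.1% of kept probes were on DAC only and 2.88% on PBS only. Sox6, which acts with Bcl11a, was at least 3.15-fold higher after scaling, with a log2 difference of 0.75 to 4.27 over the settings. Nr2c1 and Igf2bp3 were the other two on DAC. Igf2bp1 was the one on PBS, at 5.16 on the DAC array against 33.8 on the PBS array.

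Of 24 late erythroblast and red cell genes 11 were measured, 9 above 0 and 2 below, and their median was 0.58. At least 2-fold higher on the DAC array were 3 (Icam4 2.48, Slc25a37 1.54 by its brightest probe only, Bpgm 1.44), against 10.0% of measured genes. Icam4 read only 24.7 on the PBS array, and its difference ran from 1.05 to 2.88 over the settings. At least 2-fold lower were 0, against 6.84% of measured genes, and 8 lay between. The 2 below 0 were Aqp1 (−0.69) and Hemgn (−0.32). On 1 array only were Tmcc2 for DAC, against 11.1% of kept probes, and Alas2 and Kel for PBS, against 2.88%. The red cell anion exchanger gene Slc4a1 read 50.1 on the DAC array against 27.6 on the PBS array, a difference of 0.46 that ran from −0.094 to 0.86 over the settings. Epb42 and Rhd, both red cell membrane genes, were well above background on neither array. Before scaling, the summed intensity of the list was 209663 on the DAC array against 195681 on the PBS array, a ratio below the scaling factor of 1.32. Nearly all of it came from the Hemgn probe. Without Hemgn the sum was 7073 on the DAC array against 3582 on the PBS array, a ratio above that factor. The part of red cells or their RNA in the globin signal was not tested.

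Early erythroid genes had 14 of 17 measured, and the median was 0.052. At least 2-fold higher was 1 of the 14 (Car1 1.82, with −0.16 on its other probe), against 10.0% of measured genes. At least 2-fold lower were 2 (Gata1 and Blvrb −1.01), against 6.84% of measured genes. The summed intensity of the list was 18471 on the DAC array against 14246 on the PBS array before scaling, a ratio below the scaling factor of 1.32. Both lists together held 39 genes, of which 23 were measured, 16 above 0 and 7 below, where the background below 0 was 48.6% of measured genes. Their median difference was 0.23, against 0.02 over all 18211 measured genes and −0.63 over the adult globin probes. With spike-in scaling the median of the 2 lists was −0.080 and that of the adult globins −0.94.

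**Figure D4:**
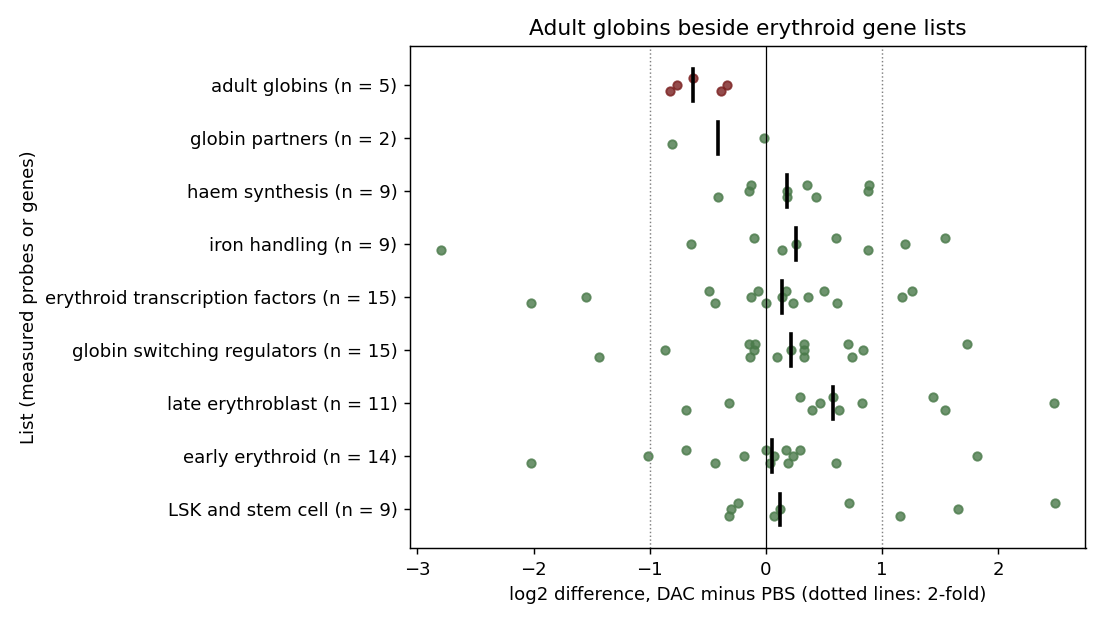
Log2 difference, DAC minus PBS, of the 5 adult globin probes (top line) and of the measured genes of each list (1 point a gene, by its brightest probe). Black bars are medians and dotted lines mark 2-fold. All adult globin points lie left of 0 (with no scaling Hba-a1 and Hba-a2 lie right of it), while with this scaling the medians of 7 of the 8 other lists lie right of it, the exception being the 2 measured globin partners, Ahsp and Hp. Spike-in scaling moves every value by −0.31, which is more than all of those medians but that of the late erythroblast genes.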

How the data were processed

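One-colour (Cy3) Agilent arrays were hybridised with cRNA from total RNA, 1 array a group. Per the file headers, intensities come from Agilent Feature Extraction 10.7.3.1 (GE1_107_Sep09, probe positions on mm9). The deposited processed intensity is background-subtracted and spatially detrended, and not normalized between arrays. The deposited calls include well above background, positive and significant, and a p-value of each spot against background, which was not used further. The deposited series matrix holds log2 values, each column with a median of 0. Their differences ran with a slope of 1.00 against those of the scanner values, their baseline per probe is unknown, and they were used for differences only.

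Outlier spots were left out, spots of a probe averaged as log2, and each array scaled as described with the results, over the subset because 45.6% of probes were well above background on both. A probe is measured if it is well above background on both. A gene is read by its brightest probe. A bound sets the bright array against the higher of the probe's own signal and the dimmest detected signal on the other array. Spot SDs use the 20 nearest in signal of 185 repeatedly printed probes. Names came from the files and, through RefSeq GRCm38.p6, 11 globin probes by accession and 2 by synonym. Globin members and lists were chosen with earlier results of these data known. Named list genes are those of largest and smallest difference and of known role, and others were named after their values were seen, where a count was 5 or fewer. Computations used Python 3.11.15, R 4.3.3 and limma 3.58.1, and were tested on simulated data. With 1 array a group, the number of arrays limits every value.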

Additional observations from a re-analysis of the deposited data

How the results depend on the processing

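Alternatives were another scaling, background treatment or filter, and, chosen after seeing the data, no scaling between arrays. The adult globin median of −0.63 was −0.79 with median scaling, −0.83 with the percentile over all probes and with the series matrix values, −0.94 with spike-in scaling (1 of 10 spike-in probes), −0.43 with normexp, −0.48 with no background subtraction and −0.23 with no scaling. The gap of beta to alpha of −0.40 was −0.70 with quantile normalization and −0.18 with normexp. Adult probes below 0 numbered 3 of 5 with no scaling. The erythroid median of 0.23 was 0.074 with median scaling, 0.030 with the percentile over all probes, 0.19 with quantile normalization, 0.33 with loess, −0.080 with spike-in scaling, 0.031 with the series matrix values, 0.16 with normexp and with no background subtraction, and 0.63 with no scaling. On the DAC array 2 probes for embryonic genes and Hbb-bh2 were well above background, and 4 were positive and significant. With no scaling Hba-a1, Hba-a2 and Hbb-bh2 turned to 0.0080, 0.061 and 0.24. The median of all measured probes moved by up to 0.40 in size (0.40 with no scaling, −0.31 with spike-in scaling), and the cause of the other moves was not tested. All 5 adult probes passed each filter on dim probes, so the filters could not change the adult median. That median is also the value of Hbb-bt, the single adult probe that shares no listed transcript. Restricting to Hbb-bt therefore had to return it, and shows nothing about the other probes. For Hbb-bt alone no gap to alpha can be had. No paired analysis was possible because each group has 1 array. The dimmest signals called well above background were 22.5 (DAC) and 20.3 (PBS), and 3 of 7 probes for embryonic genes and Hbb-bh2 passed this call on neither array.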
